A study of Homo sapiens with 18 samples.

Results

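The immunoglobulin constant region genes encode the part of the antibody chain that sets its class. The 10 described here are the 9 heavy chain genes IGHM, IGHD, IGHG1, IGHG2, IGHG3, IGHG4, IGHA1, IGHA2 and IGHE, and the kappa light chain gene IGKC. The deposited count table lists Ensembl gene IDs, which were given symbols from GENCODE 29, and all 10 were found among the 60707 genes read. The genes were chosen by name and by a measured value, the higher IGHE count of GFP low cells in these same libraries. Values of GFP low against GFP high cells are therefore given for the members as a description, without a test.

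The RNA came from Raji, an established human B cell line from a Burkitt lymphoma, in a study of SMARCA4 (BRG1) protein loss by an auxin-inducible degron, a tag that lets the hormone auxin send a protein for destruction. SMARCA4 is an ATPase of the BAF chromatin remodelling complex. The libraries formed 6 groups of 3: GFP low at 24, 48 and 72 h and GFP high at 24, 48 and 72 h. All 18 carry the genotype label Smarca4+/+. The sources used here do not say what GFP stands for, how cells were sorted into fractions, what started the clock, how much auxin was added, or whether the line was 1 clone. Some column names join GFP to BRG1 without saying more. Column names place each library in 1 of 3 library sets, one unnumbered and the others numbered 1 and 2, and values of a group are given in that order.

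A B cell joins a variable, a diversity and a joining segment into 1 exon, which is first spliced to the mu and delta constant exons. Class switching then cuts the DNA between repetitive switch regions and brings a downstream constant gene (gamma, alpha or epsilon) next to that exon. Each downstream gene can also be transcribed before any switch, from a promoter in front of its switch region, into a germline transcript that encodes no antibody. Counts over constant exons hold both kinds of transcript, and the files do not separate them.

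Libraries held 27257876 to 55419458 counts in genes. SMARCA4 mRNA was 590 ± 21.4 CPM (counts scaled to the library size, with TMM factors) in GFP low and 418 ± 9.39 CPM in GFP high cells at 24 h, 482 ± 16.2 and 446 ± 9.80 CPM at 48 h, and 474 ± 14.2 and 411 ± 10.03 CPM at 72 h (SD, n = 3 each). It was thus higher in GFP low cells (log2 fold changes of 0.50 ± 0.03, 0.11 ± 0.03 and 0.20 ± 0.03, SE; edgeR quasi-likelihood test, Benjamini-Hochberg adjusted p = 3.3e-12, 0.0075 and 2.2e-05). Degron loss acts on the protein, so this mRNA does not check the labels. All 10 B cell markers examined were at 1 CPM or more. Their summed level was 5006 to 5248 CPM in GFP low and 5240 to 5441 CPM in GFP high cells at 24 h, 4592 to 4795 and 5063 to 5292 CPM at 48 h, and 4544 to 4776 and 4977 to 5159 CPM at 72 h. The summed level of 12 myeloid and mast cell markers was 2.16 to 2.57 CPM in GFP low and 0.880 to 1.10 CPM in GFP high cells at 24 h and 0.603 to 1.66 CPM later, with FCER1A, CPA3 and MS4A2 at 0 in every library. The myeloid integrin gene ITGAM was higher in GFP low cells at 24 h (log2 fold change 1.74 ± 0.25, adjusted p = 3.7e-06). The 10 T cell markers summed to 22.9 to 25.8 CPM in GFP low and 44.1 to 46.8 CPM in GFP high cells at 24 h, 36.1 to 39.7 and 41.6 to 44.9 CPM at 48 h, and 37.4 to 40.5 and 51.3 to 53.6 CPM at 72 h, with CD8A at 0 throughout. Epithelial, kidney and stromal markers (10 genes) summed to 8.63 to 11.3 CPM in GFP low and 6.33 to 6.60 CPM in GFP high cells at 24 h, and to 2.87 to 6.53 CPM later. The part of other cells in the results was not tested. Whether libraries of 1 group stem from different cultures is not in the labels, and p-values here measure only the spread between libraries.

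Several members are near-identical in sequence, which bears on how their reads are counted. In GENCODE 29 the coding sequences of IGHG1 to IGHG4 shared 94.9% to 96.4% of aligned bases, and those of IGHA1 and IGHA2 96.1%. Of all stretches of 50 bases in its transcripts, IGHG1 shared 54.4% with another gene, IGHG2 47.0%, IGHG3 45.8%, IGHG4 42.3%, IGHA1 32.5% and IGHA2 32.3%. IGHE shared 15.7%, all with the pseudogene IGHEP1, while IGHM, IGHD and IGKC shared 0%. How reads that map to several places were treated is not given, so the split between the gamma genes and between the alpha genes is uncertain.

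The hinge, the flexible link between the arms and the stem of the antibody, is where the gamma genes differ most. The hinge exons are shown on the minus strand of hg38 (IGHG1 chr14:105742341-105742385, IGHG2 chr14:105644068-105644103, IGHG4 chr14:105625344-105625379, and the first of 4 in IGHG3 chr14:105770669-105770719), with cysteine codons in capitals.
IGHG1: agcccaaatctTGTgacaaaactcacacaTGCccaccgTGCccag
IGHG2: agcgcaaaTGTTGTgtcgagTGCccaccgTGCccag
IGHG4: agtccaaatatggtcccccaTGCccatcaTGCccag
IGHG3: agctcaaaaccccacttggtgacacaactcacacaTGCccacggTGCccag
IGHG2 carries 4 cysteine codons there, IGHG1 has 3 and IGHG4 has 2.

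The alpha genes differ at scattered bases. The first 60 bases of the first constant exon of IGHA1 (chr14:105708606-105708665, minus strand) and IGHA2 (chr14:105588336-105588395, minus strand) differ at 5 bases, in capitals, and the same stretch of IGHE (chr14:105601669-105601728, minus strand) is set beside them.
IGHA1: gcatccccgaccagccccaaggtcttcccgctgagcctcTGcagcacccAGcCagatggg
IGHA2: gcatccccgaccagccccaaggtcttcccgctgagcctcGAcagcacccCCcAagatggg
IGHE: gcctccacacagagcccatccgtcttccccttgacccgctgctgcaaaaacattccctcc

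All 10 members passed the filter on low counts. Per unit of length, the mean over 18 libraries in TPM (from counts divided by summed exon length, then scaled to the library) was 5580 for IGHM, 1212 for IGKC, 163 for IGHG1, 61.6 for IGHA1, 12.3 for IGHG3, 6.39 for IGHG2, 4.11 for IGHA2, 2.94 for IGHE, 1.15 for IGHG4 and 0.623 for IGHD. The ranges over libraries did not overlap between neighbours from IGHM down to IGHG3. From IGHG3 on, each gene's range overlapped that of the next in this order. IGHM took 93.9% to 95.2% of the counts in heavy chain constant genes, and the 10 members together took 0.268% to 0.367% of all counts in genes.

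IGHM (ENSG00000211899.10, chr14:105851705-105856218), the mu chain of the B cell receptor and of IgM, had the same level in both fractions at 24 h and was higher in GFP low cells later. In GFP low cells the 3 libraries had 2697, 2674 and 2867 CPM at 24 h, against 2659, 2694 and 2878 CPM in GFP high cells. At 48 h they had 3016, 3025 and 3239 CPM in GFP low, against 2539, 2586 and 2685 CPM in GFP high cells. At 72 h they had 2798, 2805 and 3005 CPM in GFP low, against 2427, 2395 and 2588 CPM in GFP high cells. The fractions overlapped at 24 h and were apart at 48 and 72 h, with log2 fold changes (low over high) of 0.00 ± 0.04, 0.25 ± 0.04 and 0.22 ± 0.04 (SE). The 24 h value depends on the scale: in TPM IGHM was 6338 ± 217 in GFP low and 5071 ± 227 in GFP high cells, and with the trend on gene length removed its log2 fold change was 0.22.

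IGHD (ENSG00000211898.8, chr14:105836765-105845677), the delta chain made from the same long transcript as IGHM, was near the limit of detection, with 2 to 20 counts per library and 0.0706 to 0.557 CPM. At 24 h it had 13, 17 and 16 counts in GFP low, against 10, 6 and 5 counts in GFP high cells. Its GFP low library was then the higher in 3 of 3 sets by CPM, with a log2 fold change of 1.16 ± 0.53, although the fractions overlapped, as they did at 48 and 72 h. At 72 h the log2 fold change was 0.02 ± 0.52. At 48 h it was -0.31 ± 0.55, and without the GFP high library of set 2, which held 20 of the counts, it was 0.60.

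The gamma genes encode the IgG subclasses and did not move together. IGHG1 (ENSG00000211896.7, chr14:105736343-105743071), the most abundant of them, had 118, 115 and 123 CPM in GFP low cells at 24 h, against 110.3, 110.3 and 119.8 CPM in GFP high cells. Its log2 fold change was 0.06 ± 0.05 at 24 h, 0.23 ± 0.05 at 48 h and 0.18 ± 0.05 at 72 h. By CPM its fractions overlapped at 24 h alone. The 24 h value depends on the scale, as for IGHM: in TPM IGHG1 was 186 ± 5.08 in GFP low and 142 ± 6.97 in GFP high cells, and the fractions were apart. With the 4 gamma genes summed, the 24 h value was 0.13.

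IGHG3 (ENSG00000211897.9, chr14:105764503-105771405), the gamma gene nearest to IGHM, had 10.2, 10.03 and 10.8 CPM in GFP low cells at 24 h, against 8.33, 7.48 and 7.59 CPM in GFP high cells. Its log2 fold changes were 0.41 ± 0.07, 0.42 ± 0.06 and 0.53 ± 0.07 at 24, 48 and 72 h. IGHG2 (ENSG00000211893.4, chr14:105639559-105644790), which lies further downstream, had 7.94, 7.97 and 7.19 CPM in GFP low cells at 24 h, against 3.39, 3.08 and 3.70 CPM in GFP high cells. IGHG2 was thus about 2.27 times as high in GFP low cells at 24 h, 2.25 times at 48 h and 2.22 times at 72 h.

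At 48 h IGHG2 had 6.06, 5.21 and 5.93 CPM in GFP low, against 2.37, 2.49 and 2.79 CPM in GFP high cells. At 72 h it had 6.22, 5.14 and 4.81 CPM in GFP low, against 2.05, 2.35 and 2.89 CPM in GFP high cells. The fractions were apart at each of these times. IGHG4 (ENSG00000211892.4, chr14:105620506-105626066), its neighbour, had only 16 to 48 counts per library, overlapped between fractions at all 3 times and had log2 fold changes of -0.09 ± 0.25, 0.26 ± 0.24 and 0.31 ± 0.24.

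IGHA1 (ENSG00000211895.5, chr14:105703995-105708665), which encodes the main IgA heavy chain of blood, stood higher in the GFP low fraction throughout. It had 32.0, 30.1 and 33.5 CPM in GFP low cells at 24 h, against 13.5, 14.1 and 14.5 CPM in GFP high cells. At 48 h it had 34.8, 32.3 and 36.8 CPM in GFP low, against 11.3, 14.3 and 14.2 CPM in GFP high cells. At 72 h it had 30.9, 30.9 and 32.1 CPM in GFP low, against 12.2, 10.9 and 12.2 CPM in GFP high cells. The log2 fold changes were 1.18 ± 0.07, 1.37 ± 0.07 and 1.41 ± 0.07. Relative to IGHM, GFP low cells had 11.6 ± 0.299 and GFP high cells 5.11 ± 0.107 IGHA1 counts per 1000 IGHM counts at 24 h (SD, n = 3 each), so the difference stood also within the heavy chain genes.

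IGHA2 (ENSG00000211890.4, chr14:105583731-105588395), the second alpha gene and the last of the locus, had 2.71, 1.93 and 2.77 CPM in GFP low cells at 24 h, against 0.745, 0.850 and 0.972 CPM in GFP high cells. The means were 2.23 CPM in GFP low and 0.858 CPM in GFP high cells at 48 h, and 1.86 and 0.842 CPM at 72 h. No library of one fraction overlapped the other, and the log2 fold changes were 1.51 ± 0.18, 1.36 ± 0.18 and 1.17 ± 0.19. IGHA2 gave 59.4 to 77.2 counts per 1000 IGHA1 counts as group means, so its level is small beside that of the near-identical IGHA1, and the part of reads assigned to the wrong alpha gene was not tested.

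IGHE (ENSG00000211891.6, chr14:105597691-105601728), the epsilon chain of IgE, the antibody class of allergy and of defence against worms, had the highest fold of the members throughout. Its counts in the 3 libraries were 72, 80 and 169 in GFP low cells and 13, 14 and 30 in GFP high cells at 24 h, or 2.16, 2.62 and 3.47 CPM against 0.440, 0.410 and 0.561 CPM. At 48 h it had 2.00, 1.77 and 1.91 CPM in GFP low, against 0.424, 0.446 and 0.797 CPM in GFP high cells. At 72 h it had 1.23, 0.857 and 1.71 CPM in GFP low, against 0.122, 0.453 and 0.332 CPM in GFP high cells, the lowest from 4 counts. Each GFP low library was above each GFP high library of its time. The log2 fold changes were 2.52 ± 0.29, 1.70 ± 0.29 and 2.07 ± 0.34, or 5.85, 3.40 and 4.19 times as ratios of means. Even in GFP low cells at 24 h IGHE was 7.35 ± 1.75 TPM, against 1.01 ± 0.169 TPM in GFP high cells. In bulk RNA, more cells with the transcript and more transcript per cell cannot be told apart.

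**Figure D1:**
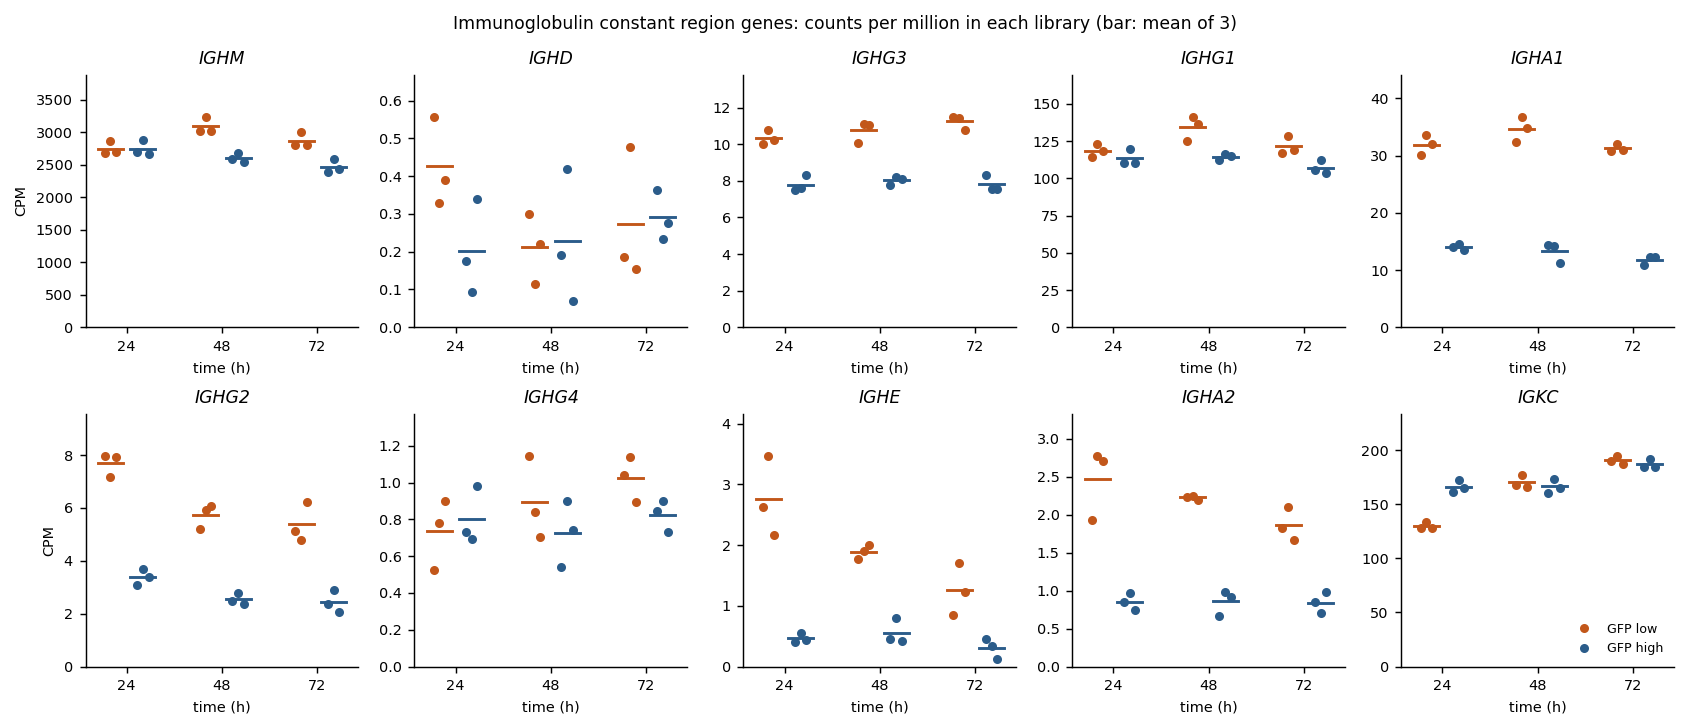
CPM of each member in each library against time in hours, with GFP low left of GFP high; dots are libraries, bars are means of 3, and each panel has its own axis from 0. The fractions are apart at all 3 times for IGHA1, IGHG2, IGHE, IGHA2 and IGHG3, while IGHG4 and IGHD overlap and IGKC is apart at 24 h alone.

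Along the chromosome the larger fold changes lay mostly downstream, with exceptions. The locus is read on the minus strand of chromosome 14 (chr14:105583731-105856218, hg38), from IGHM over IGHD, IGHG3, IGHG1, IGHA1, IGHG2, IGHG4 and IGHE to IGHA2, whose start lies 268 kb downstream of that of IGHM. The 4 members with log2 fold changes above 1 at every time, IGHA1, IGHG2, IGHE and IGHA2, start 148 to 268 kb downstream, whereas IGHM, IGHG3 and IGHG1, with values of at most 0.53, start within 113 kb. IGHG4, 230 kb downstream, breaks the order, at -0.09, 0.26 and 0.31 at 24, 48 and 72 h with SEs of 0.24 to 0.25. IGHD, 10.5 kb downstream, had 1.16, -0.31 and 0.02 with SEs of 0.52 to 0.55, so its 24 h value breaks the order too. This order was seen after the values were known and is a description.

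**Figure D2:**
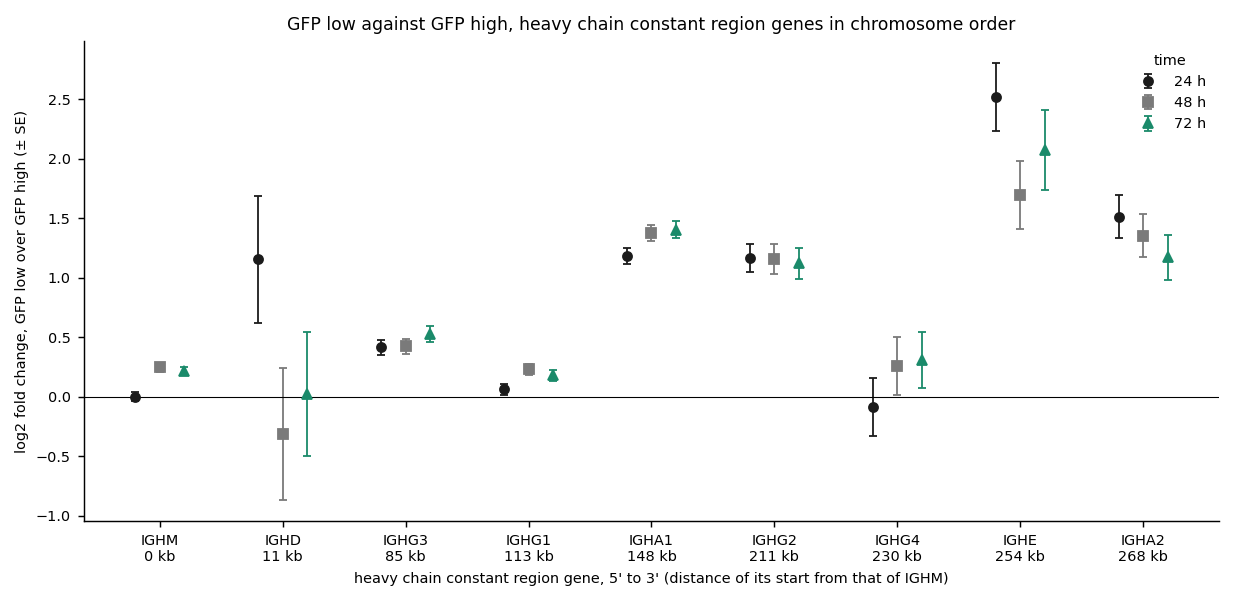
Log2 fold change of GFP low over GFP high cells (± SE) for the 9 heavy chain constant genes in 5′ to 3′ order, at 24, 48 and 72 h; 0 means equal CPM. Values lie between 0.00 and 0.53 for IGHM, IGHG3 and IGHG1 and above 1.1 for IGHA1, IGHG2, IGHE and IGHA2. IGHG4 lies between -0.09 and 0.31, and IGHD at 1.16, -0.31 and 0.02.

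By counts, the GFP low libraries lay wholly above the GFP high libraries for 5 of 10 members at 24 h, where 32.1% of all 16474 tested genes did so. At 48 h this held for 7 of 10 members, against 16.9% of all genes, and at 72 h for 7 of 10, against 19.2%. The opposite held for 1 member, IGKC, at 24 h (29.8% of all genes) and for 0 at 48 h (19.9%) and 72 h (19.6%). IGHG3, IGHA1, IGHG2, IGHE and IGHA2 were above at all 3 times, as were 5.38% of all genes. The median log2 fold change of the members was 0.79, 0.34 and 0.42, against 0.03, -0.01 and 0.00 over all tested genes. Because this contrast helped choose the members, nothing is read from these counts.

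Between IGHA2 and IGHM the table holds 16 genes, of which 7 are not members. The pseudogenes IGHEP1 and IGHGP and the other small genes MIR8071-1, MIR8071-2, ELK2AP and ATP6V1G1P1 averaged at most 0.140 CPM over all libraries. COPDA1, which lies between IGHG2 and IGHGP, averaged 0.743 CPM in GFP low and 0.443 CPM in GFP high cells at 24 h and passed no test (edgeR quasi-likelihood, Benjamini-Hochberg adjusted p = 0.055, 0.21 and 0.094 at the 3 times). Of the nearest 5 genes beyond IGHA2 at 1 CPM or more (TEDC1, MTA1, MTA1-DT, PACS2 and ENSG00000279495), 3 were higher and 1 lower in GFP low cells at 24 h (29.3% and 28.5% of all genes). At 48 h 0 passed (23.8% of all genes did), and at 72 h 1 was higher (12.9%). MTA1, a subunit of the NuRD chromatin complex, had log2 fold changes of 0.17 ± 0.04, 0.02 ± 0.04 and 0.18 ± 0.04 (adjusted p = 0.0012, 0.77 and 0.0024). With the length trend removed the 24 h calls of MTA1 (0.08, adjusted p = 0.065) and of PACS2 (0.12, adjusted p = 0.15) were lost. None of these 5 genes had a log2 fold change of low over high above 0.47 in size at any time.

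IGKC, the kappa light chain that pairs with the heavy chain, lies on chromosome 2 (ENSG00000211592.8, chr2:88857161-88857683, minus strand, hg38) and moved differently from the heavy chain genes. It had 128, 128 and 134 CPM in GFP low cells at 24 h, against 165, 161 and 172 CPM in GFP high cells. At 48 h it had 166, 168 and 177 CPM in GFP low, against 165, 161 and 173 CPM in GFP high cells. At 72 h it had 187, 190 and 195 CPM in GFP low, against 185, 185 and 192 CPM in GFP high cells. The fractions were apart at 24 h and overlapped later, with log2 fold changes of -0.35 ± 0.03, 0.03 ± 0.03 and 0.03 ± 0.03. IGKC is the shortest member, at 523 bp, and the 24 h difference did not stand on a length-aware scale: it was 1074 ± 24.4 TPM in GFP low and 1098 ± 36.1 TPM in GFP high cells, and its log2 fold change with the length trend removed was -0.01.

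Change over time within a fraction was tested, since it is not the contrast that helped choose the members. It uses the same libraries, among them the GFP low libraries whose higher IGHE count entered that choice, so it is not independent of it. In GFP low cells 3 of 10 members rose between 24 and 48 h and 1 fell, where 25.7% of all genes rose and 25.1% fell, 50.8% in all (edgeR quasi-likelihood, adjusted p under 0.05). Between 24 and 72 h 1 rose and 3 fell (29.6% and 27.5% of all genes, 57.1% in all), and between 48 and 72 h 1 rose and 2 fell (13.9% and 12.5%, 26.4% in all). In GFP high cells 0 rose and 1 fell between 24 and 48 h (10.6% and 9.97% of all genes, 20.6% in all), 1 rose and 3 fell between 24 and 72 h (13.9% and 15%, 28.9% in all), and 1 rose and 0 fell between 48 and 72 h (13.7% and 14.2%, 27.8% in all). Shares this near to the background are no result about the members as a set. Libraries of a set varied together, and in a fit blocked by set the members called were 2 between 24 and 48 h (32.7% of all genes) and 5 between 48 and 72 h (39.2%) in GFP high cells, and 5 between 48 and 72 h (38.4%) in GFP low cells. With the length trend removed none of the 3 rises between 24 and 48 h in GFP low cells was called (24% of all genes rose), and 4 members fell (23.6%), namely IGHD, IGHG2, IGHE and IGHA2. The value of IGKC over that time was then 0.12 (adjusted p = 0.24), against 0.39 ± 0.03 without that step (adjusted p = 1.6e-09).

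IGHE fell in GFP low cells between 24 and 72 h, by 1.10 ± 0.25 on the log2 scale (edgeR quasi-likelihood, adjusted p = 0.00081), and was lower in 3 of 3 library sets. Between 24 and 48 h its log2 change was -0.55 ± 0.24 (adjusted p = 0.057), and in the blocked fit it fell (adjusted p = 0.0073), as it did between 48 and 72 h (-0.55, adjusted p = 0.032). In GFP high cells its log2 change between 24 and 72 h was -0.65 ± 0.39 (adjusted p = 0.23), and between 48 and 72 h -0.92 ± 0.38 (adjusted p = 0.076, and 0.032 in the blocked fit). Whether IGHE changed differently in the fractions was not tested. Its higher count in GFP low cells helped choose the members, so its p-values in that fraction are not independent of the choice.

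IGHG2 fell in both fractions. The log2 change from 24 to 48 h was -0.42 ± 0.11 in GFP low (adjusted p = 0.0032) and -0.41 ± 0.13 in GFP high cells (adjusted p = 0.034), and from 24 to 72 h -0.51 ± 0.11 (adjusted p = 0.00060) and -0.47 ± 0.13 (adjusted p = 0.011). The 48 h call in GFP high cells was lost when any of 4 libraries was left out (set unnumbered or 2 at 24 h, set unnumbered or 1 at 48 h; adjusted p = 0.065 to 0.16). The 72 h call was lost without the GFP high library of set 2 at 24 h (adjusted p = 0.075) or without that of the unnumbered set at 72 h (adjusted p = 0.062).

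IGHA2 fell between 24 and 72 h in GFP low cells (log2 change -0.41 ± 0.17, adjusted p = 0.039), a call that DESeq2 did not make (adjusted p = 0.091), that was lost without the filter on low counts (adjusted p = 0.15) and that 6 of 18 left-out libraries ended (adjusted p = 0.052 to 0.18). IGHA1 fell in GFP high cells over the same time (-0.25 ± 0.08, adjusted p = 0.017), which was lost without the GFP high library of set 2 at 24 h (adjusted p = 0.080) or of set 1 at 72 h (adjusted p = 0.084). In GFP low cells the log2 change of IGHA1 was -0.03 ± 0.06 (adjusted p = 0.73), and with the length trend removed it fell (-0.32, adjusted p = 0.00050). In the blocked fit IGHA1 also rose from 24 to 48 h in GFP low cells (0.12, adjusted p = 0.0098), where it was -0.12 with the length trend removed (adjusted p = 0.14), and fell from 48 to 72 h in GFP low (-0.15, adjusted p = 0.0034) and in GFP high cells (-0.18, adjusted p = 0.016).

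IGHM rose in GFP low cells between 24 and 48 h, by 0.17 ± 0.04 on the log2 scale (adjusted p = 0.000405), and fell in GFP high cells between 24 and 72 h (-0.15 ± 0.04, adjusted p = 0.0032). IGHG1 rose in GFP low cells between 24 and 48 h (0.18 ± 0.04, adjusted p = 0.0019). With the length trend removed, neither rise stood, at -0.04 for IGHM (adjusted p = 0.38) and 0.04 for IGHG1 (adjusted p = 0.42). Between 48 and 72 h in GFP low cells IGHM fell by 0.11 and IGHG1 by 0.14 (adjusted p = 0.032 and 0.022). Both calls were lost when the set 2 library at 48 h or the unnumbered or set 1 library at 72 h was left out (adjusted p = 0.073 to 0.15), and that of IGHG1 also without the unnumbered library at 48 h (adjusted p = 0.051). In the blocked fit IGHM also changed from 24 to 72 h in GFP low cells (0.06, adjusted p = 2.0e-12, against -0.18 with the length trend removed, adjusted p = 0.00015) and from 24 to 48 h and 48 to 72 h in GFP high cells (-0.08 in each, adjusted p = 2.3e-15 and 8.1e-11). IGHG1 was likewise called in GFP high cells from 24 to 72 h (-0.08, adjusted p = 0.0062) and from 48 to 72 h (-0.09, adjusted p = 0.0050).

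IGKC rose in both fractions. From 24 to 72 h its log2 change was 0.55 ± 0.03 in GFP low (adjusted p = 4.2e-12) and 0.17 ± 0.03 in GFP high cells (adjusted p = 0.00039). With the length trend removed these were 0.09 (adjusted p = 0.33) and 0.15 (adjusted p = 0.16), so the test no longer called either. Between 48 and 72 h it rose by 0.16 in GFP low and 0.17 in GFP high cells (adjusted p = 0.00082 and 0.00054), and with the length trend removed these were -0.02 and 0.08 (adjusted p = 0.87 and 0.50).

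**Figure D3:**
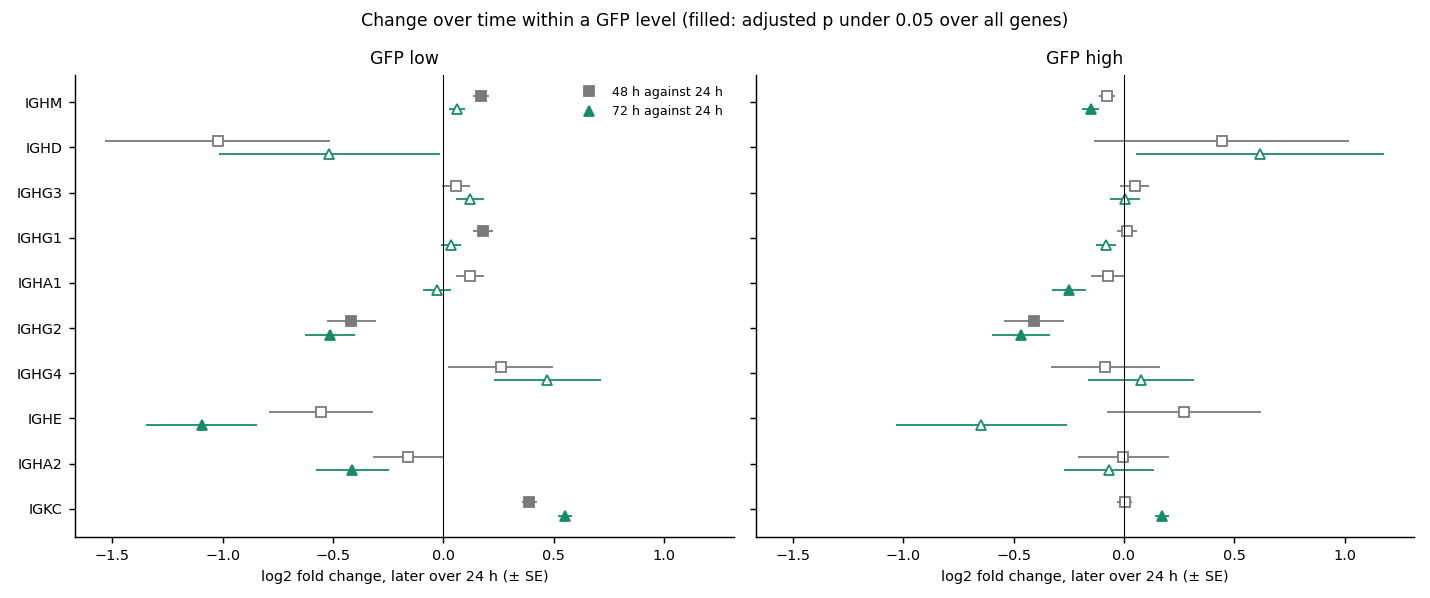
Log2 change from 24 h to 48 h (squares) and to 72 h (triangles) within GFP low cells (left) and GFP high cells (right), with SE; filled symbols have an adjusted p under 0.05 over all tested genes. IGHE, IGHG2 and IGHA2 lie left of 0 in GFP low cells at 72 h, and the IGKC symbol for 72 h lies right of 0 in both panels.

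The variable and joining segments gave a view of the rest of the chain. Of 17 segments at 1 CPM or more, 4 were higher and 5 lower in GFP low cells at 24 h, 4 higher and 2 lower at 48 h, and 7 higher and 1 lower at 72 h. Of all genes, 57.9%, 23.8% and 26.4% were called in these comparisons. IGHV3-21, the heavy chain variable gene with the highest level, had 104 ± 7.25 CPM in GFP low and 109.6 ± 5.08 CPM in GFP high cells at 24 h, 114 ± 4.05 and 102 ± 4.19 CPM at 48 h, and 126 ± 4.36 and 108 ± 5.32 CPM at 72 h. Its log2 fold changes were -0.07 ± 0.05, 0.16 ± 0.05 and 0.22 ± 0.05 (adjusted p = 0.19, 0.017 and 0.0013), and in the blocked fit the 24 h value was called too (adjusted p = 0.012). With the length trend removed the values were 0.28, 0.18 and 0.11 (adjusted p = 0.011, 0.17 and 0.41), and the 48 h call was lost without the unnumbered GFP low library (adjusted p = 0.060) or the set 1 GFP high library of that time (adjusted p = 0.10).

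IGKV3-20, a kappa variable gene, was lower in GFP low cells at 24 h alone (-0.44 ± 0.08, adjusted p = 9.5e-05), a call that was lost with the length trend removed (adjusted p = 0.57). At 48 and 72 h its log2 fold changes were 0.10 ± 0.08 and 0.07 ± 0.08. IGLV6-57, a lambda variable gene, had 25.1 ± 1.37 CPM in GFP low and 18.7 ± 1.11 CPM in GFP high cells at 24 h, 36.5 ± 1.37 and 18.5 ± 0.951 CPM at 48 h, and 42.6 ± 0.929 and 22.0 ± 0.966 CPM at 72 h. It was higher in GFP low cells at each time (adjusted p = 3.5e-07, 6.0e-12 and 4.1e-12).

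The lambda constant genes went the other way. Of 5 further chain genes that could be tested, 0 were higher and 4 lower in GFP low cells at 24 h (29.3% and 28.5% of all genes). With the length trend removed 0 were higher and 3 lower at 24 h, with a median log2 fold change of -0.62 against -0.97. The share of all genes called in that fit is not given here. At 48 h 2 were higher and 2 lower (10.6% and 13.2%), and at 72 h 1 was higher and 2 lower (12.9% and 13.5%). IGLC2, a lambda constant gene, had 11.8 ± 1.24 CPM in GFP low and 26.5 ± 1.57 CPM in GFP high cells at 24 h, 16.8 ± 1.06 and 24.4 ± 0.524 CPM at 48 h, and 17.6 ± 2.94 and 28.3 ± 1.75 CPM at 72 h. It was lower in GFP low cells at each time (log2 fold changes of -1.17 ± 0.09, -0.53 ± 0.08 and -0.68 ± 0.08, with adjusted p = 1.8e-10, 6.6e-05 and 3.0e-06). IGLC3 was likewise lower (-0.97 ± 0.16, -0.66 ± 0.16 and -0.89 ± 0.17), though IGLC2, IGLC3 and the overlapping IGLL5 share sequence, so their split is uncertain. JCHAIN, which joins IgM and IgA units into polymers, had 280.0 ± 12.3 CPM in GFP low and 699 ± 26.1 CPM in GFP high cells at 24 h (-1.32 ± 0.04, adjusted p = 7.0e-18), 827 ± 24.8 and 762 ± 16.0 CPM at 48 h (0.12 ± 0.03, adjusted p = 0.016, and 0.055 without the unnumbered GFP low library), and 927 ± 24.6 and 897 ± 41.9 CPM at 72 h (0.05 ± 0.03, adjusted p = 0.35, and 5.5e-07 in the blocked fit).

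Among partners of the antigen receptor, 2 of 9 genes were higher and 6 lower in GFP low cells at 24 h (29.3% and 28.5% of all genes). At 48 h they were 1 and 4 (10.6% and 13.2%), and at 72 h 2 and 5 (12.9% and 13.5%). In the blocked fit they were 4 and 5 at 72 h, where 18.5% of all genes were higher and 18.2% lower. CR2, a complement receptor of B cells, was lower in GFP low cells at all 3 times (log2 fold changes of -0.70 ± 0.02, -0.80 ± 0.02 and -0.98 ± 0.02), as was the kinase BTK (-0.25 ± 0.02, -0.15 ± 0.02 and -0.24 ± 0.02). CD79B, which carries the signal of membrane immunoglobulin, was -0.16 ± 0.04, 0.27 ± 0.04 and 0.03 ± 0.04, and with the length trend removed its 24 h value was 0.04. Its 72 h value had an adjusted p of 0.66, and 0.0061 in the blocked fit. Adjusted p-values for CR2 and BTK were at most 3.3e-05.

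Of 44 genes of the class switch machinery, 16 were higher and 21 lower in GFP low cells at 24 h (29.3% and 28.5% of all genes). At 48 h they were 6 and 7 (10.6% and 13.2%), and at 72 h 7 and 13 (12.9% and 13.5%). In the blocked fit they were 12 and 16 at 48 h, where 15.4% of all genes were higher and 19.7% lower. With the length trend removed they were 11 and 22 at 24 h, a fit whose share of all genes is not given here. At 24 h the DNA end-joining kinase gene PRKDC (0.45 ± 0.01) and TP53BP1 (0.46 ± 0.02) were higher in GFP low cells, and APEX1 (-0.53 ± 0.02), XRCC6 (-0.39 ± 0.02) and YWHAZ (-0.46 ± 0.02) were lower, with adjusted p-values of at most 1.4e-13. PRKDC was lower in GFP low cells at 72 h (-0.21 ± 0.01).

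Of 37 tested genes of switch signals and germline transcription, 22 were higher and 8 lower in GFP low cells at 24 h (29.3% and 28.5% of all genes). At 48 h they were 13 and 7 (10.6% and 13.2%), and at 72 h 9 and 12 (12.9% and 13.5%). In the blocked fit they were 13 and 14 at 48 h (15.4% and 19.7%). STAT6, which carries the IL-4 signal to the epsilon germline promoter, had 180.0 ± 6.34 CPM in GFP low and 216 ± 4.81 CPM in GFP high cells at 24 h, 129.5 ± 2.80 and 195 ± 5.12 CPM at 48 h, and 144 ± 4.11 and 202 ± 8.17 CPM at 72 h. It was lower in GFP low cells each time (adjusted p = 3.2e-07, 1.3e-11 and 2.0e-10). CD40, the receptor for T cell help, was lower too (-0.28 ± 0.04, -0.40 ± 0.04 and -0.72 ± 0.04). CEBPB, a factor of inflammatory signalling, was higher in GFP low cells (0.45 ± 0.07, 0.55 ± 0.06 and 0.39 ± 0.06). BCL6, a repressor known to restrain epsilon germline transcription in mice, was higher in GFP low cells at 24 h (0.14 ± 0.02) and 72 h (0.36 ± 0.02). At 48 h its value was -0.05 ± 0.02 (adjusted p = 0.087, and 0.0014 in the blocked fit).

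Among 28 tested transcription factors of the immunoglobulin loci, 19 were higher and 6 lower in GFP low cells at 24 h (29.3% and 28.5% of all genes). At 48 h they were 8 and 3 (10.6% and 13.2%), and at 72 h 11 and 4 (12.9% and 13.5%). In the blocked fit they were 8 and 8 at 48 h (15.4% and 19.7%). With the length trend removed they were 15 and 8 at 24 h, a fit whose share of all genes is not given here. PRDM1, which drives plasma cell differentiation, had 69.6 ± 0.314 CPM in GFP low and 26.2 ± 1.53 CPM in GFP high cells at 24 h and was higher in GFP low cells at each time (1.41 ± 0.04, 1.34 ± 0.04 and 1.47 ± 0.04). The plasma cell marker list, which holds PRDM1, was mixed at 24 h: of 9 tested genes 4 were higher and 5 lower in GFP low cells, with a median log2 fold change of -0.47. At 48 h 5 were higher and 1 lower, and at 72 h 2 and 2. Its summed level at 24 h was 568 to 590 CPM in GFP low and 1017 to 1058 CPM in GFP high cells. JCHAIN alone averaged 280 CPM and 699 CPM in these groups. CD38, a surface enzyme of plasma cells, was lower in GFP low cells at all 3 times (-0.92 ± 0.04, -1.12 ± 0.04 and -0.84 ± 0.04). ARID3A, known as Bright in mice for its binding beside heavy chain variable promoters and the heavy chain enhancer, was higher in GFP low cells (1.25 ± 0.09, 1.08 ± 0.09 and 0.87 ± 0.09), as was ETS1 (0.22 ± 0.02, 0.26 ± 0.02 and 0.22 ± 0.02). SPIB (-0.20 ± 0.04, -0.30 ± 0.04 and -0.40 ± 0.04) and IRF8 (-0.51 ± 0.02, -0.23 ± 0.02 and -0.18 ± 0.02), both partners in an ETS and IRF factor pair, were lower. All adjusted p-values in this group of named genes were at most 0.00036.

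Of 16 tested genes of heavy chain RNA processing, 8 were higher and 6 lower in GFP low cells at 24 h (29.3% and 28.5% of all genes). At 48 h they were 1 and 4 (10.6% and 13.2%), and at 72 h 2 and 4 (12.9% and 13.5%). In the blocked fit they were 1 and 11 at 48 h (15.4% and 19.7%), then 6 and 5 at 72 h (18.5% and 18.2%). With the length trend removed they were 6 and 7 at 24 h, a fit whose share of all genes is not given here. AFF1, a scaffold of the super elongation complex, had 121 ± 2.36 CPM in GFP low and 52.8 ± 1.64 CPM in GFP high cells at 24 h and was higher in GFP low cells at each time (1.19 ± 0.03, 1.34 ± 0.03 and 1.40 ± 0.03). The splicing factor SRSF3 was lower in GFP low cells (-0.71 ± 0.02, -0.08 ± 0.02 and -0.08 ± 0.02), and its 48 h call was lost without the GFP low set 2 or the GFP high set 1 library (adjusted p = 0.058 and 0.052) and its 72 h call without the GFP high unnumbered or set 1 library (adjusted p = 0.097 and 0.069). HNRNPF, known to act on the choice between secreted and membrane heavy chain ends, was -0.56 ± 0.02, -0.04 ± 0.02 and -0.06 ± 0.02, with adjusted p = 0.16 at 48 h (0.016 in the blocked fit) and 0.022 at 72 h, a call that 5 of the 6 libraries of that time ended when left out (adjusted p = 0.061 to 0.10).

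Of 35 genes of antibody folding and assembly, 6 were higher and 22 lower in GFP low cells at 24 h (29.3% and 28.5% of all genes). At 48 h 9 were higher and 10 lower (10.6% and 13.2%), and at 72 h 9 and 10 (12.9% and 13.5%). HSPA5, the chaperone BiP that holds free heavy chains, had 1010 ± 4.63 CPM in GFP low and 1235 ± 12.99 CPM in GFP high cells at 24 h and was lower in GFP low cells at all 3 times (-0.29 ± 0.01, -0.24 ± 0.01 and -0.30 ± 0.01). XBP1, the factor of the secretory programme, was lower in GFP low cells at 24 h (-0.47 ± 0.02) and higher at 48 h (0.12 ± 0.02), with a value of 0.01 ± 0.02 at 72 h. HSP90B1 (0.28 ± 0.02, 0.21 ± 0.02 and 0.26 ± 0.02) and EDEM1 (0.25 ± 0.02, 0.29 ± 0.02 and 0.26 ± 0.02) were higher in GFP low cells.

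Of 7 tested receptors of antibodies, 2 were higher and 1 lower in GFP low cells at 24 h (29.3% and 28.5% of all genes). At 48 h they were 2 and 2 (10.6% and 13.2%), and at 72 h 1 and 2 (12.9% and 13.5%). FCGR2B, the inhibitory receptor for IgG, was lower in GFP low cells (-0.44 ± 0.06, -0.97 ± 0.07 and -0.48 ± 0.07). FCER2, the CD23 receptor for IgE, was -0.03 ± 0.05 at 24 h (adjusted p = 0.57) and was lower in GFP low cells at 48 h (-0.24 ± 0.05) and at 72 h (-0.63 ± 0.05). With the length trend removed it was 0.13 at 24 h (adjusted p = 0.011).

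**Figure D4:**
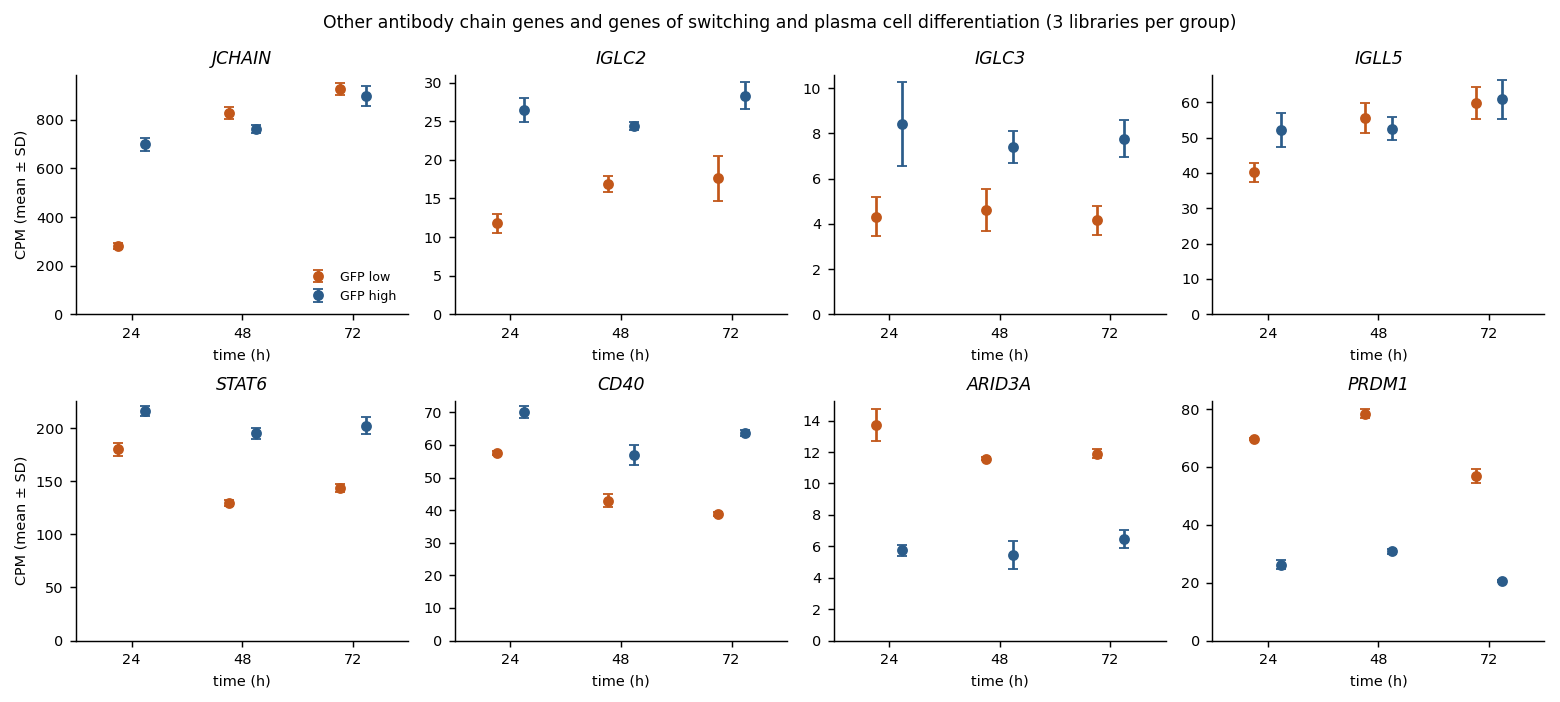
Mean CPM ± SD of 3 libraries against time in hours for 4 other antibody chain genes and 4 regulators, with GFP low left of GFP high and each axis from 0. JCHAIN is lower in GFP low cells at 24 h and close at 72 h, whereas IGLC2, STAT6 and CD40 are lower and ARID3A and PRDM1 higher in GFP low cells throughout.

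The genes whose profile over the 6 groups was nearest to that of IGHE were sought among 11423 genes at 1 CPM or more that are no immunoglobulin genes, by the root mean square difference of centred group means of log2 CPM. They were ARID3B (0.32), SAMD9L (0.33), KIAA1217 (0.34), TMEM229B (0.38) and IFFO2 (0.40). For IGHM they were SHISA5, EEF2KMT, ARV1, RNF32 and B4GALT2, each at 0.03. The smaller differences of the IGHM set go with the smaller range of its profile, from -0.15 to 0.17, against -1.53 to 1.56 for IGHE.

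**Figure D5:**
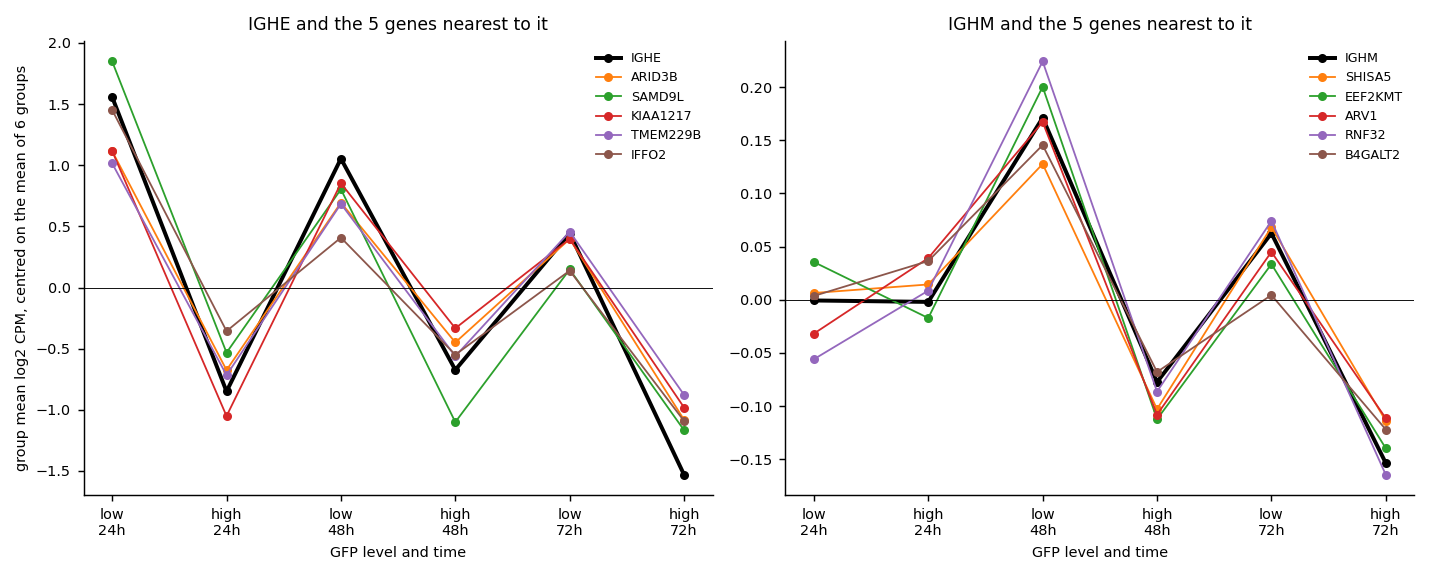
Group mean log2 CPM, centred on the mean of 6 groups, for IGHE (left, black) and IGHM (right, black) and the 5 genes nearest to each, in the order low then high at 24, 48 and 72 h; the panels have different vertical scales. IGHE and its neighbours are above 0 in all 3 GFP low groups and below 0 in all 3 GFP high groups, whereas IGHM is near 0 in both groups at 24 h.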

How the data were processed

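Total RNA of 18 Raji libraries was depleted of ribosomal RNA, per the labels' protocols. The authors deposited 1 table of whole-number counts per gene, whose columns are those of featureCounts per the file headers; FastQC, STAR, featureCounts, Subread, R 4.2.1 and hg38 are named in the submitters' processing notes. The annotation release, the strand setting and the treatment of multi-mapping reads are not stated in these sources, so sense and antisense reads over the members cannot be told apart. Of the table's genes 60707 were read, and ANK2 was dropped because its line is split into 3. Column names gave the group and 1 of 3 library sets (unnumbered, 1 and 2), but not which sample of a group a column holds, and those of the unnumbered set join GFP to BRG1; days 1 to 3 in them were taken as 24, 48 and 72 h.

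The deposited counts were fitted with edgeR 4.0.16 in R 4.3.3: filterByExpr kept 16474 genes, normalization was by TMM, and 6 group means were compared by 2-sided quasi-likelihood F tests (12 residual degrees of freedom) with Benjamini-Hochberg adjustment over all tested genes and a threshold of 0.05. Each SE was obtained by dividing the size of the log2 fold change by the root of its F value. The common biological coefficient of variation was 3.49%. Between libraries of 1 group the median squared difference was 1.45 to 3.10 times that of sampling noise. It was 1.45 to 1.71 times for the unnumbered set against set 1, and 2.46 to 3.10 times for pairs with set 2. Library sets paired the samples: deviations from group means correlated at 0.262 to 0.561 in all 45 same-set pairs, with a median of -0.19 for other pairs. Alternatives were median-of-ratios scaling, DESeq2 1.42.0, no filter, the library set as a block, totals without immunoglobulin genes, near-identical genes summed, the length trend removed, and each library left out. The fitting was tested on simulated data. Sequences were read from GENCODE 29 with Biopython 1.88.

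Members and lists were chosen with earlier results of these data known. Besides the members and SMARCA4, the text could name variable and joining segments at a mean of 1 CPM or more, genes between IGHA2 and IGHM and the nearest 5 beyond IGHA2, up to 3 called genes per list, direction and comparison by adjusted p, and the 5 genes nearest in profile to IGHE and IGHM. FAM30A falls outside this rule and was picked after its values were seen. Some genes of the lists are not reported here.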

Additional observations from a re-analysis of the deposited data

Results flagged for a closer look

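IGHM moved in opposite directions over time in the fractions, in every library set. Its log2 change from 24 to 48 h in GFP low cells less that in GFP high cells was 0.25, and from 24 to 72 h 0.22. IGHG1 showed the same from 24 to 72 h, with a value of 0.12. IGKC was lower in GFP low cells in every set at 24 h and higher in every set later, and its log2 fold change of low over high was 0.39 higher at 48 h and 0.38 higher at 72 h than at 24 h. These differences were not tested. They depend on gene length: with the length trend removed IGHM in GFP low cells was -0.04 from 24 to 48 h and -0.18 from 24 to 72 h, so that it no longer went the other way than in GFP high cells. IGHG1 in GFP low cells was 0.04 from 24 to 72 h (edgeR quasi-likelihood, adjusted p = 0.52), and -0.11 with that trend removed. The 24 h log2 fold change of IGKC was -0.35, and -0.01, 0.04 and -0.06 at 24, 48 and 72 h with the trend removed.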

How the results depend on the processing

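Of 396 recomputed time changes of members under alternatives other than leaving out a library, 360 kept their side of the threshold, and 4 that were called in either fit turned in sign, all with the trend on gene length removed: IGHM (-0.039 from 24 to 48 h and -0.18 from 24 to 72 h) and IGHG1 (-0.11 from 24 to 72 h) in GFP low cells, and IGKC (-0.023 from 48 to 72 h) in GFP low cells. Values called in neither fit changed sign too, among them IGHA1 (-0.12 from 24 to 48 h) and IGHG3 (-0.07 from 24 to 48 h and -0.02 from 24 to 72 h) in GFP low cells under that setting. Among other named genes 3 of 1197 recomputed values turned at 24 h under the same setting, IGHV3-21 (0.28), CD79B (0.039) and FCER2 (0.13). The cause was not tested.

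Members called from 24 to 48 h in GFP high cells were 2 without the filter and 2 with the library set as a block (32.7% of all genes), against 1 (20.6%). From 48 to 72 h in GFP high cells they were 3 without the filter, 5 with the block (39.2% of all genes) and 2 with the length trend removed (26.1%), against 1 (27.8%). In GFP low cells they were 5 with the block (38.4%), against 3 (26.4%). With near-identical genes summed no count of members was made, as fewer features remain. With 1 library left out, members called ranged from 0 to 1, 2 to 4 and 1 to 2 in GFP high cells (24 to 48, 24 to 72 and 48 to 72 h), and from 4 to 5, 3 to 4 and 1 to 4 in GFP low cells. Shares of all genes called without the filter or with 1 library left out are not given here, so nothing is read from those member counts. Context list genes called with 1 library left out ranged from 150 to 162, 77 to 90 and 82 to 106 at 24, 48 and 72 h. The main fit called 162, 88 and 106 of 197 tested, and 57.9%, 23.8% and 26.4% of all genes.

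Depth limits IGHD (2 to 20 counts per library), IGHG4 (16 to 48) and IGHE in GFP high cells (4 to 38).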

Other observations

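FAM30A, a noncoding gene beside the heavy chain diversity segments (chr14:105917979-105932642, plus strand, hg38), was picked after its values were seen. It had 106 ± 7.05 CPM in GFP low and 55.9 ± 1.61 CPM in GFP high cells at 24 h, 68.3 ± 2.30 and 52.4 ± 0.341 CPM at 48 h, and 78.2 ± 4.22 and 54.3 ± 1.47 CPM at 72 h. Its log2 fold changes were 0.92 ± 0.04, 0.38 ± 0.04 and 0.53 ± 0.04 (SE). Because of that choice they are given as a description, without a test.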
